A study of Homo sapiens with 24 samples.

Results

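VCaP is a prostate cancer cell line in which ERG, a transcription factor of the ETS family, is made from a fusion gene driven by the TMPRSS2 promoter. The comparison described here sets VCaP cells with a short hairpin RNA against ERG (shERG, libraries 1 and 2) beside VCaP cells with a control hairpin (shCt, libraries 1 and 2). The libraries were chosen by their titles and are 4 of the 24 in the study. Cells of both groups were exposed to lentivirus for 48 h and then held under puromycin for 8 days. The libraries of a group came from separate infections, selections and cultures. PolyA RNA was sequenced as short single-end reads. A single hairpin label is given for each target, so other effects of a hairpin cannot be told apart from loss of its target. A group of 2 further VCaP libraries carried a hairpin against ARID1A (shARID1A), a subunit of the BAF chromatin remodeler. In LNCaP, a prostate cancer line without the fusion, 2 libraries with an ERG construct and 2 with an empty vector (Empty) were made after 48 h of lentivirus and 4 days of selection. They are used below as a side comparison that shares no library with VCaP.

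ERG is normally a factor of endothelial and blood cells, and it binds DNA at sites with the core GGAA. In prostate cancers with the TMPRSS2 fusion it is placed under androgen control and acts in luminal epithelial cells. Luminal cells secrete kallikreins and other proteins of the seminal fluid, and their identity rests on factors such as HOXB13 and FOXA1.

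The hairpin lowered its target in both libraries. ERG stood at 352 and 373 CPM with shCt, and at 75.2 and 82.5 CPM with shERG, where CPM is a gene's reads per unit of the scaled library size and compares libraries, not genes. The fitted log2 change was -2.20 ± 0.05 (standard error, SE; adjusted p = 3.51e-19 by edgeR's quasi-likelihood test), and ERG was 246 and 240 CPM with shARID1A. TMPRSS2 itself, whose promoter drives the fusion, was 219 and 224 CPM with shCt and 288 and 303 CPM with shERG (0.42 ± 0.05). So the ERG transcript fell while that of the partner gene was higher, and neither gene's groups overlapped. Of the 3 listed members of the ERG subfamily, FLI1 had 0 reads in all 4 libraries. The remaining relative of ERG passed the filter on low counts and was lower too (log2 change -0.80).

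The VCaP libraries held 23288024 to 30831975 counted reads. Of 26346 genes, 16791 passed the filter on low counts and were tested. The markers of luminal prostate cells were all read, with KLK2 at 7078 and 7647 CPM in the shCt libraries. Of 9 such markers, 2 were higher and 7 lower with shERG. Of 8 fibroblast markers 4 passed the filter and all 4 were higher, among them LUM (25.3 and 25.5 CPM, then 52.6 and 56.3 CPM) and COL1A1, while COL1A2 and THY1 had 0 reads in each library. The endothelial marker CDH5 and the leukocyte marker CD3E also had 0 reads in each of the 4 libraries, but other members of their lists were read. Of 7 endothelial markers 3 passed the filter, with 1 higher and 1 lower. Of 7 leukocyte markers 3 passed and all 3 were lower, at a summed 11.7 and 11.6 CPM with shCt and 3.01 and 3.38 CPM with shERG.

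A single microRNA gene stood apart from all other genes. MIR30A, picked out after its values were seen, had 8212 and 8873 reads with shCt, 2 and 0 with shERG, and 4216 and 2969 with shARID1A. It had 0 reads in each of the 6 LNCaP libraries. Its hairpin is shown because the flanks and loop of this microRNA are a common scaffold for expressed short hairpin RNAs. The loop between the mature arms is in capitals (19 of 71 bases), from RefSeq on GRCh38.p14, chr6:71403551-71403621, minus strand.
MIR30A hairpin: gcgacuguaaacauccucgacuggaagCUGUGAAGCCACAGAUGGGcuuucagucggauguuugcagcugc
The labels do not give the backbone of the constructs. The shERG libraries thus differed from the other VCaP libraries in reads assigned to this hairpin, and what part a difference in construct has in the results below was not tested.

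All 16791 genes were tested on both sides, with a threshold of 0.05 on the adjusted p. By the plain test 11203 genes (66.7%) were called, 4923 higher (29.3%) and 6280 lower (37.4%) with shERG. For 13856 genes (82.5%) the shERG libraries did not overlap the shCt libraries. Most genes therefore pass, and a gene's call alone sets it little apart. Counts of called members in the lists below stand against these shares, so members on both sides do not set a list apart. A second test on the same fit asked for a change of more than 2-fold. It called 1570 genes (9.35%), 478 higher (2.85%) and 1092 lower (6.5%), and "past the 2-fold test" refers to it below. The median log2 change over all genes tested was -0.05. With library totals as the scale that median moved up by 0.18, to 0.13, the share of higher genes among those called went from 43.94% to 60.52%, and among genes past the 2-fold test from 30.45% to 44.73%.

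**Figure D1:**
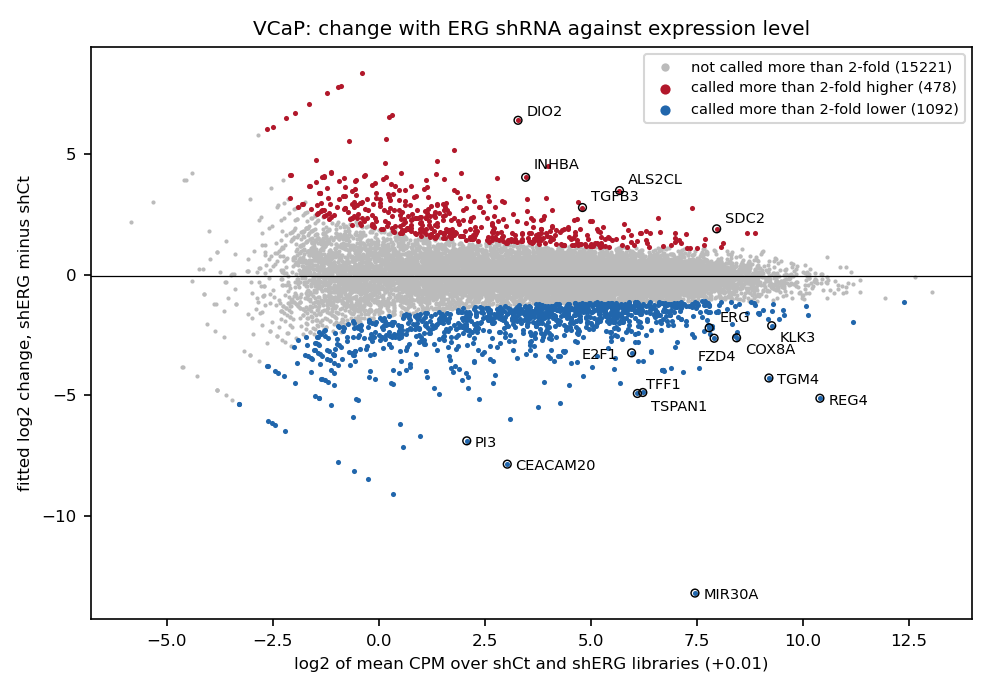
Each point is a gene, with the log2 of its mean CPM over the 4 libraries on the horizontal axis and its fitted log2 change (shERG minus shCt) on the vertical axis; colours mark the 478 genes called more than 2-fold higher and the 1092 called more than 2-fold lower. The falls of REG4 and TGM4 were in genes read at 1053 to 2658 CPM with shCt, and MIR30A lies apart from all other genes.

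Genes of a secretory, gut-like kind that VCaP cells expressed with the control hairpin were mostly lower. Of 24 listed secreted and membrane products of intestinal and mucous epithelia, 20 passed the filter on low counts, none was higher, 17 were lower and 13 were past the 2-fold test. Their median log2 change was -2.08, against -0.05 for all genes. Of all genes tested, 37.4% were lower and 6.5% were past the 2-fold test on the lower side. The list was written with earlier results of these data known. Members with few reads in the shERG libraries could pass the filter only through other groups. The counts and the median are therefore a description of the listed genes. In RNA from a whole culture, fewer cells that express a gene and less RNA per cell cannot be told apart.

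REG4, a secreted lectin of intestinal endocrine and goblet cells, stood at 2658 and 2582 CPM with shCt and at 81.4 and 68.9 CPM with shERG (log2 change -5.12 ± 0.07). The trefoil peptide gene TFF1, whose product protects mucous surfaces, went from 124 and 140 CPM to 4.61 and 4.07 CPM (-4.92 ± 0.11). S100P, a calcium-binding protein, went from 42.1 and 43.7 CPM to 2.02 and 1.56 CPM (-4.56 ± 0.14). With shARID1A, TFF1 was 67.1 and 83.2 CPM, between the other groups, and REG4 and S100P were above both shCt libraries. A second trefoil gene, TFF2, had 144 reads over the shCt libraries and 1 over the shERG libraries, a ratio of 179 with a 95% counting interval of 31.7 to 7130. MUC2, the gel-forming mucin of goblet cells, had 188 reads against 2 (ratio 117, 31.9 to 973). CEACAM5, a cell surface glycoprotein, was 8.18 and 6.76 CPM with shCt and 0.542 and 0.145 CPM with shERG. Reads of CEACAM genes can be shared between near relatives, so the value of CEACAM5 is uncertain.

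Other deep falls had similar products. TGM4, the transglutaminase that clots seminal fluid in rodents and is made by prostate epithelium, was 1176 and 1053 CPM with shCt, 59.2 and 55.3 CPM with shERG, and 2563 and 3221 CPM with shARID1A (-4.28 ± 0.09 against shCt). The shERG libraries were thus the lowest of the 3 groups, with no overlap. The protease inhibitor genes PI3 and SLPI fell as well, PI3 from 8.85 and 7.81 CPM to 0.0301 and 0.109 CPM and SLPI from 11.6 and 11.1 CPM to 1.14 and 0.836 CPM. GUCA2A, the gut peptide guanylin, went from 6.64 and 5.96 CPM to 0.392 and 0.363 CPM. CTSE, an aspartic protease of mucous cells, had 64 reads over the shCt libraries and 0 over the shERG libraries, which makes it at least 26.5-fold lower against a floor of 3 counts over the group. BPIFB1, a secreted defence protein of airway and gut, had 49 reads against 0 and was at least 20.3-fold lower (both chosen after their values were seen).

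Of the 6 tested gut and liver transcription factors, 1 was higher and 3 were lower. GATA6 was among the lower ones. ATOH1, which drives the secretory lineage of the gut, was the member that rose, at 0.167 and 0.362 CPM with shCt and 1.2 and 1.16 CPM with shERG (2.13 ± 0.47). The factor for goblet and enteroendocrine fate was thus low and rising while the products of those cells fell.

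The proximal promoters of S100P and CEACAM5 are shown as the deepest falls of the list past the 2-fold test that met these terms. A gene needed 5 CPM or more with shCt and a single annotated start, and the genes of a single chromosome were left out of the choice. The last 200 bases before the start had to hold AGGAAG, an ETS-type letter string, on either strand. The string is in capitals, and sequence and start are from RefSeq on GRCh38.p14, for S100P chr4:6693678-6693877, plus strand, and for CEACAM5 chr19:41708426-41708625, plus strand.
S100P: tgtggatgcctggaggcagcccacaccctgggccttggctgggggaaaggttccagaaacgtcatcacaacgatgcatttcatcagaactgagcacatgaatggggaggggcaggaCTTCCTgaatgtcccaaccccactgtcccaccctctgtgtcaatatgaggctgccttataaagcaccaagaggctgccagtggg
CEACAM5: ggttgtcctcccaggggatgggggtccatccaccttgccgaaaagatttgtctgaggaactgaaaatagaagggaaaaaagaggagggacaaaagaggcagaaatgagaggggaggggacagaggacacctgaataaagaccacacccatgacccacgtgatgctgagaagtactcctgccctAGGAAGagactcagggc
In windows from 250 bases before to 50 after the start, read on both strands, AGGAAG was present in 9 of 17 secretory genes with a promoter sequence (52.9%), in 42.9% of genes more than 2-fold lower, in 42.4% of genes more than 2-fold higher and in 39.5% of the 11801 tested genes with a sequence. The string CCGGAA, the other ETS type searched, was in 2 of the 17 secretory genes (11.8%), against 31.5% of all. It was in 21.1% of the lower genes and 18.9% of the higher genes. For the secretory genes the 2 strings thus stood on opposite sides of the share of all genes. These are counts of letters in a window and not of bound sites, and AGGAAG and CCGGAA can occur in the same promoter.

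**Figure D2:**
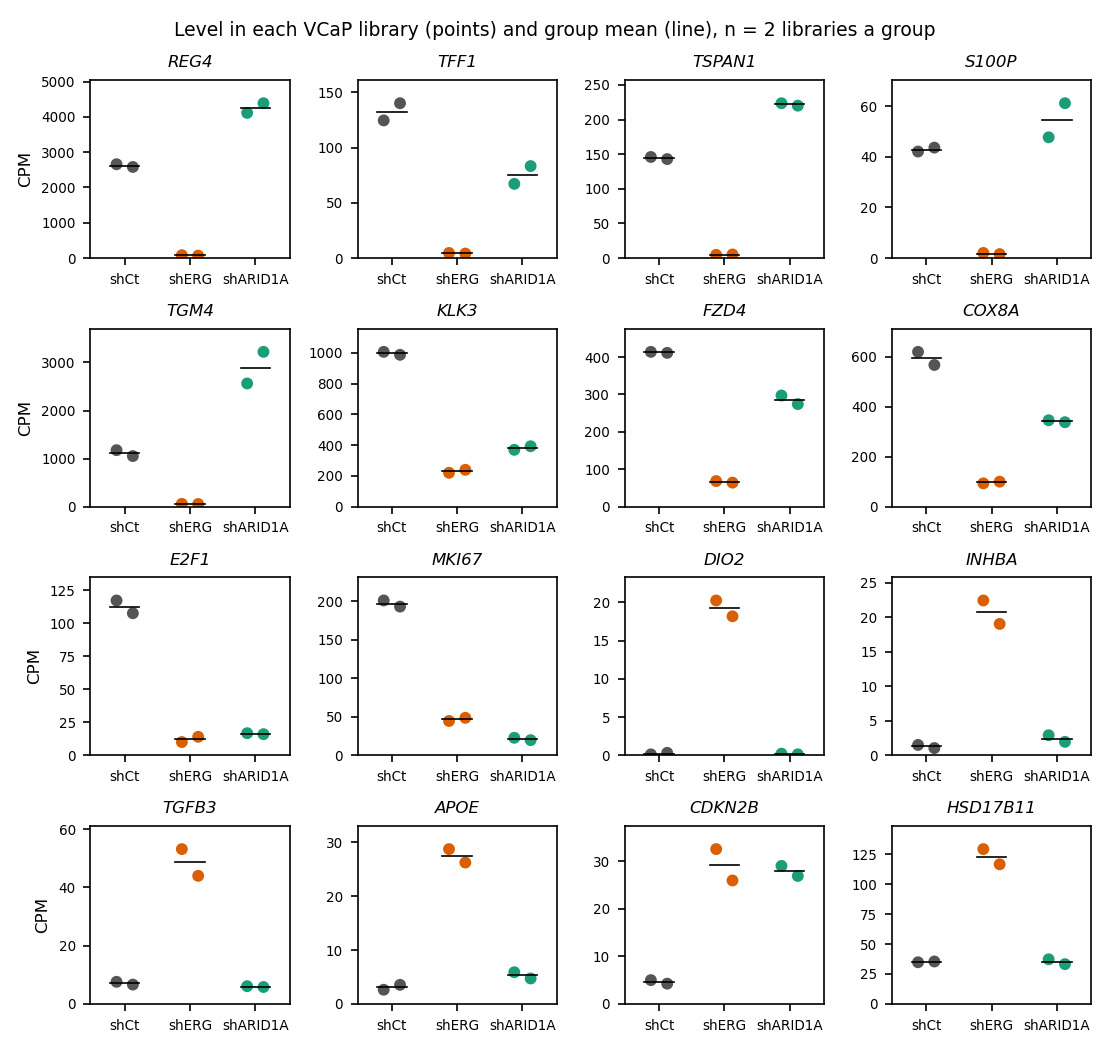
CPM of 16 genes in each of the 6 VCaP libraries (points, n = 2 libraries a group) with the group mean as a line; each panel starts at 0. The shERG libraries are the lowest in the panels of REG4, TFF1, TSPAN1, S100P, TGM4, KLK3, FZD4, COX8A and E2F1 and the highest in those of DIO2, INHBA, TGFB3, APOE and HSD17B11, while for MKI67 the shARID1A libraries are lower still and for CDKN2B they are as high as the shERG libraries.

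Genes that dispose of steroids moved apart from each other. Of 6 tested genes for oxidation and conjugation of androgens, 5 rose, all 5 past the 2-fold test, and 1 fell. With shCt 2 or shERG 1 left out, and with DESeq2, 3 were past that test. UGT2B17, which glucuronidates testosterone and its metabolites, was 9.44 and 7.97 CPM with shCt and 33.1 and 32.0 CPM with shERG (1.90 ± 0.09). Its neighbour UGT2B15, which acts on dihydrotestosterone metabolites, went from 16.3 and 15.9 CPM to 41.5 and 35.4 CPM (1.26 ± 0.08). UGT2B11 was read at 0.585 and 0.201 CPM with shCt and 2.71 and 3.09 CPM with shERG. The UGT2B genes resemble each other closely, so their reads are uncertain. HSD17B11, a dehydrogenase that oxidises 17-beta-hydroxysteroids, went from 34.8 and 35.4 CPM to 129 and 117 CPM (1.81 ± 0.06), while it was 37.3 and 33.2 CPM with shARID1A. HSD17B4 was the member that fell (-0.40 ± 0.04).

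Of the 8 tested genes of androgen synthesis and reduction, 1 was higher and 6 lower, a count that did not hold. With library totals 2 were higher and 3 lower, with DESeq2 1 and 3, and the lower count was 1 with only the compared groups in the fit, 3 without shCt 2 and 2 without shERG 1. SRD5A1, a 5-alpha-reductase, was higher (0.48 ± 0.10), and SRD5A3 fell from 14.9 and 14.4 CPM to 5.69 and 4.4 CPM (-1.53 ± 0.12). For the whole list of 14 genes the median was -0.13, and it was above 0 with library totals as the scale (0.06).

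The UGT1A locus, which conjugates bilirubin, drugs and steroids, went the other way from UGT2B. Its 9 tested entries share their last exons and had nearly equal counts, so they are treated as a single locus whose parts cannot be told apart. All 9 fell past the 2-fold test, with log2 changes from -4.04 to -3.85. A single entry, UGT1A6, stood at 195 and 195 CPM with shCt, 11.8 and 13.7 CPM with shERG, and 671 and 868 CPM with shARID1A. The 3 groups did not overlap, with shERG lowest and shARID1A highest. Cytochromes of the CYP4F group fell too, CYP4F12 from 26.5 and 26.0 CPM to 0.602 and 0.545 CPM and CYP4F11 from 8.14 and 7.49 CPM to 0.422 and 0.509 CPM, with the doubt that these genes are alike in sequence.

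The factors that define the prostate lineage stood on both sides, as genes did at large. Of 15 tested, 5 were higher and 8 lower, against 29.3% and 37.4% of all genes. HOXB13, a homeobox factor of the prostate, fell from 574 and 565 CPM to 312 and 328 CPM (-0.83 ± 0.04), GRHL2, which maintains epithelial identity, from 518 and 524 CPM to 322 and 314 CPM, and the pioneer factor FOXA1 from 928 and 932 CPM to 564 and 600 CPM (-0.68 ± 0.05). GATA2, a GATA family factor of luminal cells, was 825 and 862 CPM with shCt and 400 and 403 CPM with shERG. The deepest falls among them were in KLF4 (-1.68 ± 0.06) and SOX9 (-1.50 ± 0.08), a factor of duct progenitors. SOX4 (164 and 166 CPM, then 368 and 370 CPM) and NR3C1, the glucocorticoid receptor (11.1 and 10.5 CPM, then 22.9 and 22.5 CPM), rose.

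Of 21 tested members of the ETS family, 6 were higher and 10 lower, against 29.3% and 37.4% of all genes. With library totals 8 were higher and 9 lower, and without shCt 2 the higher count was 3. SPDEF, the ETS factor of secretory epithelia, went from 373 and 378 CPM to 82.6 and 87.6 CPM (-2.14 ± 0.05), a fall about as deep as that of ERG. ELF3, another epithelial member, fell from 157 and 170 CPM to 78.6 and 76.0 CPM, and ELK1, which acts downstream of ERK kinases, from 59.7 and 57.2 CPM to 24.9 and 25.9 CPM. ERF, an ETS repressor that competes for ETS sites, rose from 33.9 and 33.0 CPM to 72.2 and 73.8 CPM (1.13 ± 0.06), and EHF from 367 and 367 CPM to 558 and 551 CPM. The ETV1, ETV4 and ETV5 genes, which are fused in other prostate cancers, had at most 12 reads in any of the 4 libraries and were not tested.

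Androgen-regulated genes stood on both sides. Of 10 that encode secreted proteins, 1 was higher, 7 were lower and 4 were past the 2-fold test, or 2 without shERG 1 (median -1.04). Of 23 membrane and metabolic genes, 8 were higher and 13 lower (median -0.34). KLK3, which encodes prostate-specific antigen, went from 1006 and 987 CPM to 220 and 239 CPM, and KLK2 from 7078 and 7647 CPM to 3234 and 3401 CPM (-1.15 ± 0.06). PSCA, a membrane antigen of prostate cells, fell from 35.9 and 38 CPM to 4.25 and 3.6 CPM (-3.23 ± 0.11). ACPP, prostatic acid phosphatase, instead rose from 1129 and 1137 CPM to 1804 and 1934 CPM, CAMKK2, a metabolic kinase, from 166 and 170 CPM to 251 and 258 CPM, and TMEFF2 from 92.3 and 101 CPM to 190 and 218 CPM.

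Genes reported high in tumours with an ERG fusion were mostly lower: 2 of 19 tested were higher, 13 lower, and 7 of the lower were past the 2-fold test (median -0.77). ARHGDIB, a regulator of small GTPases, was 40.6 and 41.4 CPM with shCt and 9.34 and 9.01 CPM with shERG (-2.16 ± 0.08). CACNA1D, a calcium channel subunit, went from 6.39 and 6.68 CPM to 1.81 and 1.74 CPM, and AMPD3, an AMP deaminase, from 20.9 and 20.5 CPM to 6.63 and 6.8 CPM. The 2 higher members were ANKRD34B, with 3 reads over the shCt libraries and 64 over the shERG libraries (ratio 17.1, 95% counting interval 5.61 to 85.3), and coagulation factor F5, from 4.68 and 4.95 CPM to 13.3 and 11.6 CPM (1.38 ± 0.13).

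**Figure D3:**
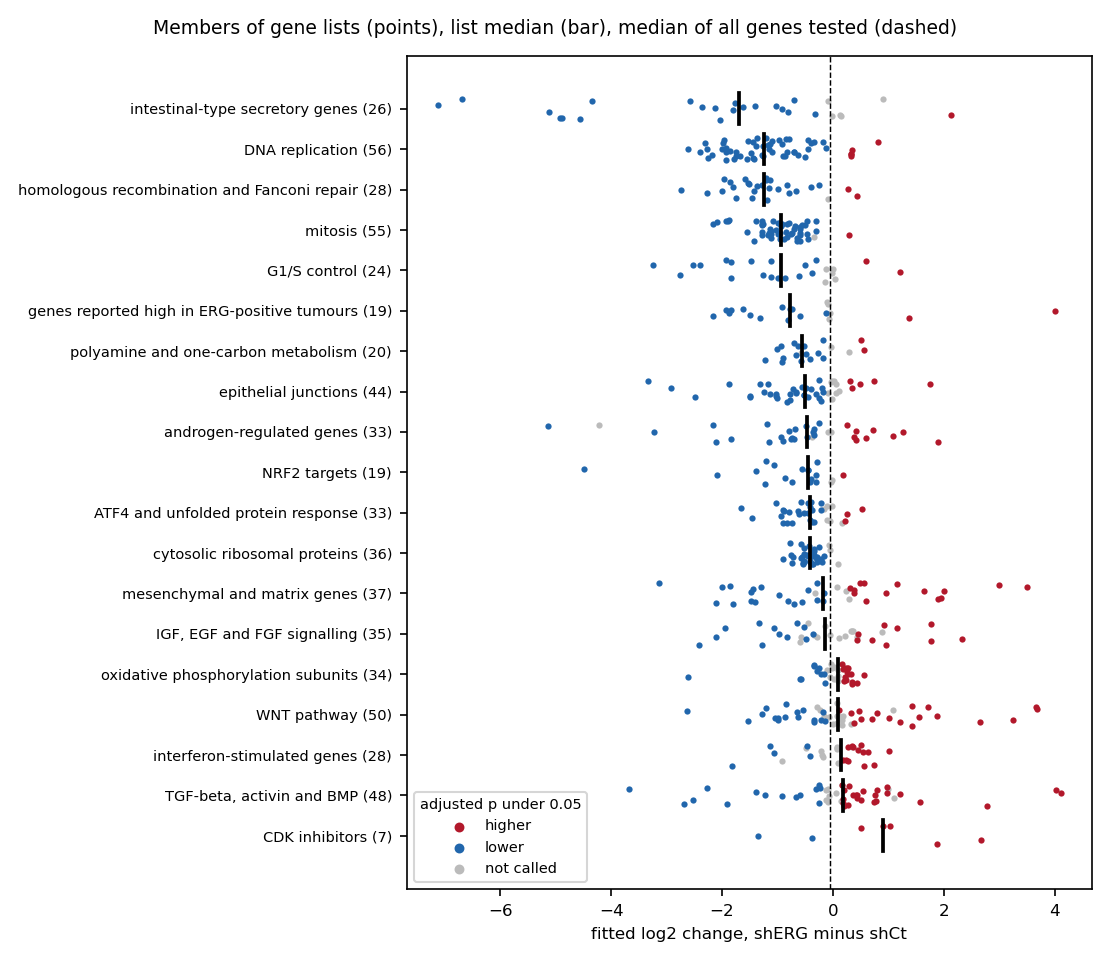
Points are the tested members of 19 gene lists, placed by fitted log2 change (shERG minus shCt) and coloured by the call at an adjusted p under 0.05; bars are list medians and the dashed line is the median of all genes tested, -0.05. Members of the secretory, replication, recombination and mitosis lists lie mostly to the left, and the signalling lists spread to both sides.

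The machinery of cell division fell at every stage that was listed, but not by the same amount. Of 16 genes for origin licensing, the loading of the helicase onto DNA before S phase, 3 were higher, 13 lower and 11 past the 2-fold test (median -1.43). Of 33 genes for initiation and the replication fork, 2 were higher, 31 lower and 16 past it (median -1.18). All 7 genes for nucleotide supply were lower (median -0.84). Of 28 genes for homologous recombination and the Fanconi pathway, which repair broken and cross-linked DNA, 2 were higher, 25 lower and 16 past it (median -1.25). Of 55 genes for mitosis, 1 was higher, 53 lower and 13 past it, or 7 without shERG 1, with library totals and with DESeq2 (median -0.94), with kinases and cyclins of mitotic entry the least changed (median -0.59 over 11).

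At the head of S phase stand the E2F factors, which switch on genes for DNA synthesis when the pocket proteins release them. E2F1 went from 117 and 107 CPM to 10.0 and 14 CPM (-3.24 ± 0.09) and E2F2 from 41.8 and 43.8 CPM to 6.2 and 6.54 CPM (-2.75 ± 0.09). E2F8, a repressor of the late cycle, fell from 17.1 and 18.2 CPM to 3.04 and 3.67 CPM, and MYBL2, which drives mitotic genes, from 85.1 and 81.5 CPM to 12.5 and 16.6 CPM. E2F5, a partner of the pocket proteins in resting cells, went the other way, from 10.5 and 11.9 CPM to 16.8 and 17.1 CPM (0.60 ± 0.10), and so did CDK6, from 1.38 and 1.73 CPM to 4.16 and 3.02 CPM. CCNE2, cyclin E2, fell by 1.85 on the log2 scale.

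Downstream, CDC45, part of the active helicase, went from 28.7 and 26.8 CPM to 4.19 and 4.91 CPM (-2.62 ± 0.11), and TK1, thymidine kinase, from 151 and 135 CPM to 26.1 and 32.0 CPM. FANCD2, of the Fanconi pathway, fell from 40.7 and 43.3 CPM to 10.7 and 12.7 CPM. ATM, a kinase that signals broken DNA, rose instead, from 74.2 and 70.0 CPM to 99.4 and 94.8 CPM. In mitosis, SPC24 and SPC25 of the kinetochore fell by 2.16 and 1.88 and AURKB by 1.90 on the log2 scale. FZR1, an activator of the anaphase complex in G1, was the mitosis member that rose, from 43.3 and 40.3 CPM to 49.9 and 52.7 CPM. Origin recognition genes ORC3, ORC4 and ORC5 also rose (0.33 ± 0.09, 0.81 ± 0.06 and 0.33 ± 0.07), beside falls of the other licensing genes.

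Promoters chosen by the same rule from the replication and mitosis lists are shown because the lists share letters there. For GINS2 (helicase) and ORC1 (licensing) the capitals mark E2F letter strings on either strand, which can overlap. The strings searched were TTCCCGC, then the form TTGGCGC, and last the form TTCGCGC. For MKI67 (proliferation marker) and ESPL1 (separase) they mark the CHR string TTTGAA on either strand. The windows are chr16:85688955-85689154, minus strand, chr1:52404424-52404623, minus strand, chr10:128126424-128126623, minus strand, and chr12:53268099-53268298, plus strand, all RefSeq on GRCh38.p14.
GINS2: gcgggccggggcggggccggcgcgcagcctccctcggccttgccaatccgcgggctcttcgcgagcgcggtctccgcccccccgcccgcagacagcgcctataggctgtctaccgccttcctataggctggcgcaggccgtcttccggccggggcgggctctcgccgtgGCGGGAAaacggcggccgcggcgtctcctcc
ORC1: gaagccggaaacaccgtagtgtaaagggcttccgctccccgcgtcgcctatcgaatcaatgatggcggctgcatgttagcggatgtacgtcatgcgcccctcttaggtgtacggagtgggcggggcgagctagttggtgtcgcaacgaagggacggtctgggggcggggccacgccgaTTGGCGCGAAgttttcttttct
MKI67: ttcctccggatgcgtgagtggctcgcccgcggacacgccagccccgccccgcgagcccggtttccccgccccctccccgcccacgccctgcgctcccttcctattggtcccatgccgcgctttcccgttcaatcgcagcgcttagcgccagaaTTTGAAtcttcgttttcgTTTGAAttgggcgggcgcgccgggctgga
ESPL1: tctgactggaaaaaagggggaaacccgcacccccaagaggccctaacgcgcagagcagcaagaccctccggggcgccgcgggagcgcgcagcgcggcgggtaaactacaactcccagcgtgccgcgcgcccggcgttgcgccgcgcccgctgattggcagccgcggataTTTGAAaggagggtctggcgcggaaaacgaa
An E2F string was in 38 of 49 replication genes with a sequence (77.6%) and in 14 of 23 recombination genes (60.9%), against 29.8% of mitosis genes, 0 of 17 secretory genes and 20.4% of all tested genes. The CHR string was in 35 of 47 mitosis genes (74.5%), 8.16% of replication genes and 13.8% of all. Among all genes more than 2-fold lower, 22.2% held an E2F string and 16.3% the CHR string. The shares were thus high in the cell cycle lists and near those of all genes among the lower genes at large, and they say nothing of which factor was bound here.

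**Figure D4:**
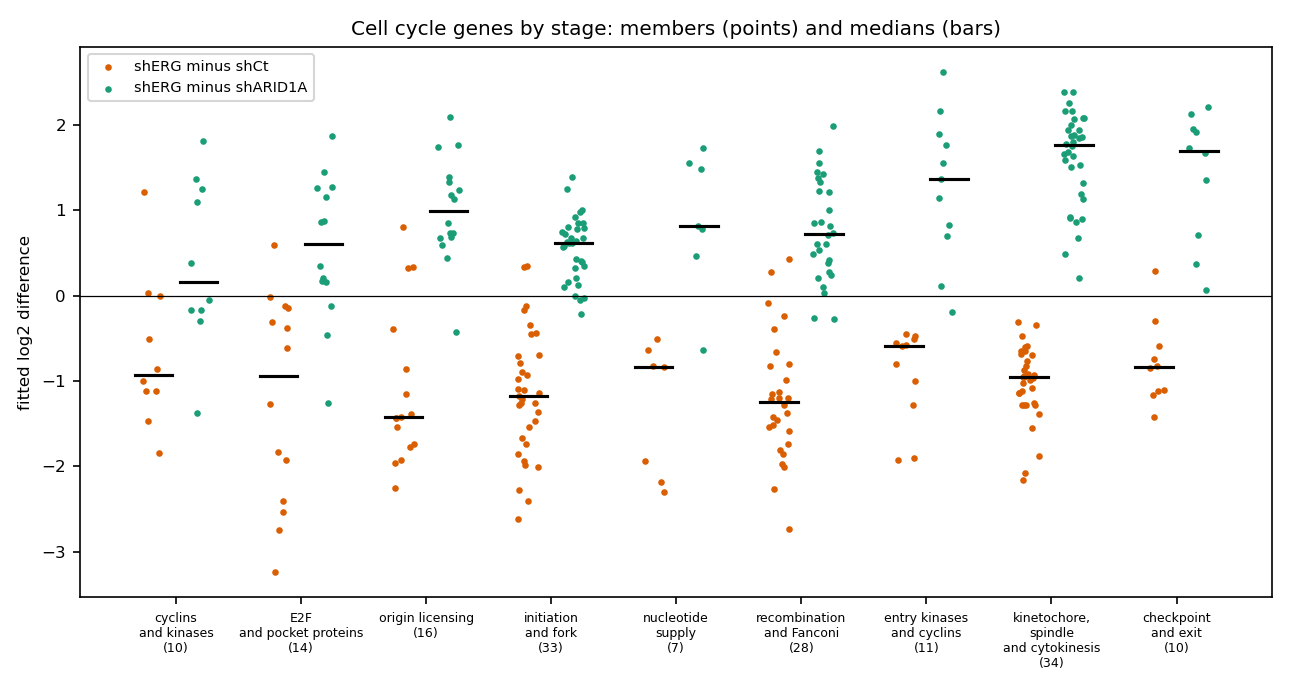
Points are the tested genes of each stage (number in brackets), as the fitted log2 difference of shERG from shCt (orange) and from shARID1A (green), with medians as bars. Most genes are below 0 against shCt and above 0 against shARID1A, most widely for kinetochore, spindle and cytokinesis genes.

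More of the brakes on the cycle rose than fell. Of the 7 CDK inhibitor genes, all tested, 5 were higher and 2 lower (median 0.91), against 29.3% and 37.4% of all genes. Past the 2-fold test were 2 on the higher side and 1 on the lower. Their summed level hardly changed, at 320 and 304 CPM with shCt and 321 and 308 CPM with shERG. CDKN2B (p15), an inhibitor of CDK4 and CDK6 that TGF-beta induces in many epithelia, went from 5.01 and 4.27 CPM to 32.6 and 26.0 CPM (2.66 ± 0.12). CDKN1C (p57) went from 6.01 and 6.04 CPM to 22 and 22.1 CPM (1.87 ± 0.11) and CDKN1B (p27) from 74.2 and 69.5 CPM to 151 and 144 CPM (1.04 ± 0.05). CDKN1A (p21), which blocks CDK2, fell from 193 and 178 CPM to 76.6 and 69.7 CPM (-1.34 ± 0.07).

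Of 13 tested BCL2 family genes, 5 were higher and 5 lower (median -0.01), against 29.3% and 37.4% of all genes. Of 3 anti-death genes 1 was higher and 2 lower. BCL2L1, which opposes cell death, fell from 211 and 212 CPM to 163 and 164 CPM. BOK, a promoter of cell death, fell from 150.4 and 156 CPM to 72.0 and 76.8 CPM. The sensitiser BMF rose from 44.8 and 45.9 CPM to 163 and 143 CPM (1.76 ± 0.06) and BCL2L11 from 29.0 and 27.6 CPM to 47.4 and 42.4 CPM, and MCL1, which opposes them, from 351 and 350 CPM to 406 and 395 CPM. BMF was as high with shARID1A (153 and 160 CPM).

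Named genes of IGF, EGF and FGF signalling included EGFR, the EGF receptor, which went from 28.8 and 25.8 CPM to 5.09 and 5.16 CPM (-2.41 ± 0.10). Both of its ligands among the named genes fell with it, HBEGF from 27.9 and 29.5 CPM to 6.42 and 6.87 CPM and TGFA from 48.1 and 49.0 CPM to 12 and 13.1 CPM. ERBB3, a partner receptor, fell by 1.33 on the log2 scale, and INSR, the insulin receptor, rose from 32.1 and 35.7 CPM to 66.2 and 61.4 CPM. Of all 35 tested genes of IGF, EGF and FGF signalling, 9 were higher and 12 lower, and their median of -0.15 changed sign with library totals as the scale.

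Genes that ERK signalling switches on as its own brakes were lower as well. Of 12 tested, 2 were higher, 7 lower and 4 past the 2-fold test, or 2 with library totals as the scale (median -0.68). DUSP5, a phosphatase of nuclear ERK, went from 6.55 and 5.47 CPM to 0.934 and 1.05 CPM (-2.60 ± 0.21). SPRED2, an inhibitor of RAF activation, went from 54.6 and 56.9 CPM to 18.3 and 17.3 CPM, and SPRY4, of the related Sprouty family, from 225 and 241 CPM to 106 and 91.6 CPM. The immediate early genes were not lower as a group, with 7 of 16 higher and 4 lower. FOSB went from 0.251 and 0.966 CPM to 2.5 and 3.78 CPM and FOS from 9.02 and 8.74 CPM to 12.5 and 16.7 CPM, against 132 and 124 CPM of FOS with shARID1A.

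The TGF-beta superfamily comprises ligands, receptors, SMAD factors and secreted traps. Of 48 tested genes, 24 were higher and 14 lower (median 0.18), against 29.3% and 37.4% of all genes. With library totals as the scale 27 were higher and 11 lower. INHBA, whose product forms activin A, went from 1.5 and 1.05 CPM to 22.4 and 19 CPM (4.03 ± 0.18), with 2.91 and 1.95 CPM in the shARID1A libraries. TGFB3 went from 7.6 and 6.64 CPM to 53.2 and 44.0 CPM (2.77 ± 0.10) and was 6.09 and 5.8 CPM with shARID1A. TGFB2 rose from 13.0 and 11.9 CPM to 30.4 and 26.9 CPM (1.21 ± 0.09). Past the 2-fold test were 4 of the 13 tested ligands on the higher side and 2 on the lower, or 2 and 2 with DESeq2. The shares of all genes were 2.85% and 6.5%. By the plain test 7 ligands were higher and 4 lower. The lower ones were BMP6 (-0.67 ± 0.14), INHBB (-1.22 ± 0.12), BMP7, a bone morphogenetic protein, from 95.6 and 89.4 CPM to 13.4 and 15.4 CPM (-2.69 ± 0.07), and GDF15, from 41.3 and 43.7 CPM to 3.22 and 3.42 CPM.

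Of the 12 receptors in that family, 6 were higher and 5 lower, and of the 6 SMADs, the factors that carry the signal to DNA, 4 were higher and none lower. ENG, the co-receptor endoglin, went from 170 and 180 CPM to 45.6 and 48.0 CPM (-1.91 ± 0.05), and ACVRL1, the receptor it works with in endothelium, from 5.14 and 4.75 CPM to 0.994 and 0.69 CPM (-2.52 ± 0.22). Of the antagonists, GREM1, which traps BMPs, fell from 43.8 and 41.9 CPM to 9.91 and 7.7 CPM, and FSTL3, which traps activin, rose from 7.35 and 8.25 CPM to 14.1 and 16.8 CPM. NOG, another BMP trap, had 1 read over the shCt libraries and 26 over the shERG libraries (ratio 20.9, 95% counting interval 3.43 to 857). Ligands and traps thus stood on both sides.

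In the WNT pathway a Frizzled receptor fell furthest among the members read at 5 CPM or more. FZD4 went from 414 and 411 CPM to 68.4 and 64.2 CPM (-2.64 ± 0.05), with 297 and 274 CPM in the shARID1A libraries. Of 17 tested receptors, 4 were higher and 10 lower. WNT2, a ligand, went from 78.2 and 82.1 CPM to 27.1 and 28.6 CPM. ROR2, a receptor for WNT ligands that do not act through beta-catenin, rose from 0.167 and 0.523 CPM to 3.31 and 3.34 CPM (3.24 ± 0.34), and ROR1, its relative, fell from 16.5 and 16.1 CPM to 7.8 and 8.58 CPM. DKK1, a secreted inhibitor, went from 0.167 and 0.322 CPM to 3.67 and 2.62 CPM. Over all 50 tested genes, 18 were higher and 17 lower (median 0.09), against 29.3% and 37.4% of all genes. With library totals as the scale 25 were higher and 14 lower. Past the 2-fold test were 8 on the higher side and 2 on the lower, against 2.85% and 6.5% of all genes. With DESeq2 these counts were 3 and 2.

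Thyroid hormone activation was the site of the highest rise among genes read at 5 CPM or more in a group. DIO2, the deiodinase that makes the active hormone T3 from T4, had 0.125 and 0.322 CPM with shCt, 20.2 and 18.2 CPM with shERG and 0.213 and 0.130 CPM with shARID1A (6.39 ± 0.23 against shCt). DIO3, which inactivates the hormone, had 0 reads in the shCt libraries and 18 over the shERG libraries, at least 4.82-fold higher. Of the other genes of the list, NCOR1, a corepressor that thyroid receptors recruit, rose from 376 and 361 CPM to 679 and 638 CPM, and SLC16A10, an amino acid and thyroid hormone carrier, fell from 18.9 and 17.5 CPM to 7.56 and 7.96 CPM. The hairless corepressor HR, a thyroid hormone target in brain, went from 3.84 and 3.62 CPM to 0.482 and 0.545 CPM (-2.86 ± 0.28).

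Further genes stood among the largest rises without falling into one of the lists. EDNRA, an endothelin receptor, went from 0.209 and 0.161 CPM to 8.01 and 5.2 CPM (5.14 ± 0.35), and EDNRB, the other endothelin receptor, had 0 reads with shCt and 37 with shERG, at least 9.91-fold higher (the latter chosen after its values were seen). OPRK1, the kappa opioid receptor, went from 5.51 and 5.88 CPM to 41.3 and 50.9 CPM (3.01 ± 0.12) and was 9.57 and 7.71 CPM with shARID1A. KL, which encodes the FGF co-receptor Klotho, went from 1.29 and 1.33 CPM to 9.94 and 8.14 CPM, and NPPC, a natriuretic peptide, from 1.29 and 1.25 CPM to 8.4 and 9.56 CPM. PDE10A, a cyclic nucleotide phosphodiesterase, went from 0.835 and 0.483 CPM to 4.73 and 5.41 CPM. All of these groups were apart, with the shCt libraries low.

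Epithelial structure genes fell and matrix genes spread. Of 44 junction and epithelial identity genes, 5 were higher, or 11 with library totals as the scale, and 31 lower (median -0.50). The basal keratins KRT14 (6.47 and 8.33 CPM, then 0.663 and 1.34 CPM) and KRT15 (2.09 and 2.74 CPM, then 0.512 and 0.327 CPM) fell beside the luminal pair KRT8 and KRT18. CLDN1, a tight junction claudin, rose from 3.59 and 2.29 CPM to 10.7 and 8.98 CPM (1.75 ± 0.17). Of 37 mesenchymal and matrix genes, 14 were higher and 19 lower, and the median of -0.17 changed sign with library totals as the scale.

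Of 23 matrix genes 9 were higher and 11 lower, against 29.3% and 37.4% of all genes. COL12A1, a collagen, went from 0.334 and 0.765 CPM to 6.72 and 5.85 CPM (3.50 ± 0.27), COL1A1 from 5.26 and 4.95 CPM to 20.5 and 18.9 CPM, and SDC2, a syndecan, from 105 and 107 CPM to 412 and 375 CPM (1.89 ± 0.06). PLOD2, which modifies collagen for cross-linking, went from 34.8 and 27.7 CPM to 158 and 159 CPM, and was 11.3 and 15.1 CPM with shARID1A. Genes that fell included integrins of epithelia, ITGB4 from 20.8 and 20.3 CPM to 5.78 and 4.36 CPM and ITGB6 from 6.22 and 7.05 CPM to 2.11 and 1.49 CPM. Of 11 integrins 3 were higher and 8 lower. Of 20 invasion proteases 6 were higher (3 without shCt 1, 2 without shERG 2) and 11 lower, with MMP10 falling from 2.38 and 3.02 CPM to 0.392 and 0.8 CPM and ADAM9 from 387 and 382 CPM to 185 and 196 CPM.

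Antigen presentation parted by class. Of 11 class I genes 8 were higher and 3 lower (median 0.52), with B2M, the shared light chain, going from 319 and 301 CPM to 457 and 443 CPM and HLA-B from 25.3 and 24.0 CPM to 38.7 and 36.9 CPM. TAPBP, which loads peptides onto class I, fell from 197 and 208 CPM to 87.6 and 87.9 CPM (-1.21 ± 0.05), so the class I genes did not move together. Of 9 class II genes 1 was higher and 4 lower (median -0.10, and 0.08 with library totals as the scale), HLA-DPA1 from 5.93 and 5.72 CPM to 1.39 and 1.05 CPM and HLA-DPB1 from 8.85 and 7.85 CPM to 2.11 and 2.04 CPM. HLA reads depend on how well the cells' alleles match the reference and on reads shared between HLA genes. IL2RG, the common receptor chain of several interleukins, fell from 25.7 and 30.8 CPM to 1.36 and 1.24 CPM (-4.44 ± 0.14).

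The chemokines named here were low and fell. Of 10 tested cytokines and chemokines 2 were higher and 6 lower, against 29.3% and 37.4% of all genes. Of the lower ones 4 were past the 2-fold test, against 6.5% of all genes. Summed over the list, the level went from 63.2 and 62.9 CPM to 50.4 and 50.4 CPM, a smaller fall than in the genes named. CXCL12, which binds the receptor CXCR4, went from 2.34 and 2.38 CPM to 0.151 and 0.145 CPM (-3.95 ± 0.34), against 27.7 and 24.5 CPM with shARID1A. CXCL10 went from 5.97 and 6.92 CPM to 0.813 and 0.836 CPM, and CXCL8 from 2.84 and 2.74 CPM to 0.753 and 0.363 CPM. Interferon-stimulated genes were not lower with them: 13 of 28 were higher (8 without shCt 2) and 5 lower, and none passed the 2-fold test. DDX58, an RNA sensor, went from 15.8 and 14.5 CPM to 25.4 and 25.2 CPM, and OAS3, an antiviral enzyme, from 110 and 105 CPM to 52.3 and 51.2 CPM.

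Of 36 cytosolic ribosomal protein genes none was higher and 33 were lower (median -0.41), and with library totals as the scale 3 were higher and 28 lower (median -0.23). RPLP1 had 519 and 500 CPM with shCt and 257 and 287 CPM with shERG. Of 34 oxidative phosphorylation subunits 15 were higher and 10 lower (median 0.08), and with library totals 23 were higher and 5 lower (median 0.27). A single member of that list passed the 2-fold test, COX8A, a nuclear-encoded subunit of cytochrome oxidase, which went from 620 and 568 CPM to 93.5 and 100 CPM (-2.62 ± 0.05). The other subunits of the list with named values, such as COX4I1 (78.7 and 77.0 CPM, then 60.5 and 62.1 CPM), changed far less.

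Of 16 chaperones of the endoplasmic reticulum, 2 were higher and 14 lower (median -0.62), for example CALR from 969 and 959 CPM to 496 and 534 CPM and PDIA4 from 328 and 317 CPM to 159 and 178 CPM. Of 19 genes of the NRF2 antioxidant response, 1 was higher and 16 were lower (median -0.44). Its factor NFE2L2 fell from 84.2 and 82.5 CPM to 40.2 and 39.5 CPM (-1.06 ± 0.05), NQO1 from 24.8 and 24.4 CPM to 5.6 and 6.03 CPM, and GPX2, the glutathione peroxidase of the gut, from 12.2 and 12.5 CPM to 0.723 and 0.327 CPM (-4.50 ± 0.20). Of 20 genes of polyamine and one-carbon metabolism, 2 were higher and 15 lower (median -0.55), with SHMT1 going from 166 and 155 CPM to 66.0 and 70.7 CPM.

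Zinc handling is a trait of prostate epithelium, which accumulates the metal for secretion. Of 25 tested zinc transporter and metallothionein genes, 4 were higher and 15 lower (median -0.45). SLC39A11, an importer, went from 17.2 and 15.1 CPM to 2.05 and 1.56 CPM (-3.14 ± 0.14), SLC39A1, the importer linked to zinc uptake in the prostate, from 211 and 200 CPM to 59.3 and 63.8 CPM (-1.74 ± 0.05), and SLC30A2, an exporter into vesicles, from 24.9 and 25 CPM to 8.43 and 7.89 CPM. SLC30A4, another vesicle transporter, rose from 363 and 357 CPM to 586 and 595 CPM (0.71 ± 0.04). The storage protein gene MT2A fell from 36.2 and 35.7 CPM to 16.9 and 17.5 CPM.

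The direct contrast of shERG with shARID1A does not use the shCt libraries that both knockdowns share as a control. It called 12262 genes (73%), 6076 higher (36.2%) and 6186 lower (36.8%) with shERG. By the 2-fold test it called 2679 (16%), 1005 higher (5.99%) and 1674 lower (9.97%). Of the 478 genes past the 2-fold test against shCt on the higher side, 405 were also higher than with shARID1A, 23 were lower and 50 were not called. Of the 1092 on the lower side, 866 were lower than with shARID1A, 134 were higher and 92 were not called. Since the genes were picked by their level against shCt in the same shERG libraries, these counts are a description.

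Many lists differed between the knockdowns. Of 55 mitosis genes, 52 were higher with shERG than with shARID1A and 1 was lower, and of 56 replication genes 46 were higher and 2 lower. MKI67 stood at 201 and 193 CPM with shCt, 44.6 and 48.7 CPM with shERG and 22.7 and 19.7 CPM with shARID1A. Of 24 tested genes of G1/S control, 14 were higher with shERG than with shARID1A and 5 lower. E2F1, of that list, was 16.7 and 16 CPM with shARID1A, above both shERG libraries. Of the 36 ribosomal protein genes all 36 were higher with shERG than with shARID1A, and of 34 oxidative phosphorylation genes 32 were higher and 2 lower, COX8A being lower (-1.82). For the secretory list the order was the reverse, with 2 of 26 higher and 20 lower than with shARID1A. NRAP, a muscle anchoring protein (6.01 and 6.12 CPM with shCt, 0.422 and 0.4 CPM with shERG, 31.9 and 35.8 CPM with shARID1A), and CYP4X1 (13.9 and 10.3, 1.45 and 1.64, 113 and 120 CPM in the same order) moved to opposite sides of shCt in the 2 knockdowns.

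In LNCaP the ERG construct raised ERG from 0.274 and 0.614 CPM to 993 and 953 CPM. There 5045 of 16993 tested genes (29.7%) were called, 2611 higher (15.4%) and 2434 lower (14.3%) with ERG. The 2-fold test called 261 (1.54%), 203 higher (1.19%) and 58 lower (0.341%). Of the 1092 genes more than 2-fold lower with shERG in VCaP, 935 were tested in LNCaP. With ERG added there, 232 of them were higher (24.8% of these 935, and 9.6% of the 2417 genes that were higher in LNCaP and tested in both lines), 109 lower (11.7%, and 4.8% of 2270) and 594 not called. Of the 478 genes more than 2-fold higher in VCaP, 380 were tested in LNCaP, where 72 were higher (18.9%, and 2.98% of 2417) and 64 lower (16.8%, and 2.82% of 2270). Over all 15567 genes tested in both lines the shares were 15.5% higher and 14.6% lower. So most genes of the VCaP comparison were not called in LNCaP.

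Of the 26 secretory genes, 7 were higher and 2 lower in LNCaP with ERG, and the rest were not called or not tested there. REG4 went from 1.39 and 0.851 CPM to 74.5 and 64.5 CPM in LNCaP with ERG (5.96 ± 0.16), S100P from 4.6 and 3.69 CPM to 52.1 and 37.6 CPM (3.44 ± 0.17), and SLPI from 8.13 and 8.84 CPM to 51.1 and 62.5 CPM (2.74 ± 0.10). FZD4 went from 30.6 and 30.9 CPM to 166 and 177 CPM (2.48 ± 0.06) and ARHGDIB from 0.472 and 1.13 CPM to 16.2 and 17.3 CPM. Of 12 ERK feedback genes, 8 were higher and 1 lower in LNCaP with ERG, such as DUSP4 from 150 and 171 CPM to 796 and 665 CPM. Of 19 NRF2 genes, 11 were higher and 2 lower there, with NQO1 going from 77.7 and 78.3 CPM to 172 and 186 CPM. Of the genes that rose with shERG, COL12A1, KL and CLDN1 were lower with ERG in LNCaP (-1.80 ± 0.27, -2.29 ± 0.23 and -2.46 ± 0.45). In each gene named here the change with added ERG was opposite in sign to that with the ERG hairpin. These genes were placed together for that, with their values known, so the shared pattern is a description and no test.

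In other genes the lines did not change in opposite ways. With added ERG, 0 of 56 replication genes were higher and 7 lower, and 0 of 55 mitosis genes were higher and 10 lower. E2F1 was 35.5 and 37.2 CPM with Empty and 26.4 and 40.7 CPM with ERG (adjusted p = 0.605 by edgeR's quasi-likelihood test). KLK3 was 2942 and 3103 CPM with Empty against 3071 and 2621 CPM with ERG, and SPDEF 97.1 and 103 CPM against 102 and 106 CPM, both not called. CDKN2B was higher in both settings, from 1.42 and 1.68 CPM to 13.2 and 14.2 CPM in LNCaP with ERG added (3.14 ± 0.14), and so were TGFB3 (1.28 ± 0.23), UGT2B17 (0.58 ± 0.07), UGT2B15 (0.90 ± 0.08) and HSD17B11 (0.50 ± 0.10).

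**Figure D5:**
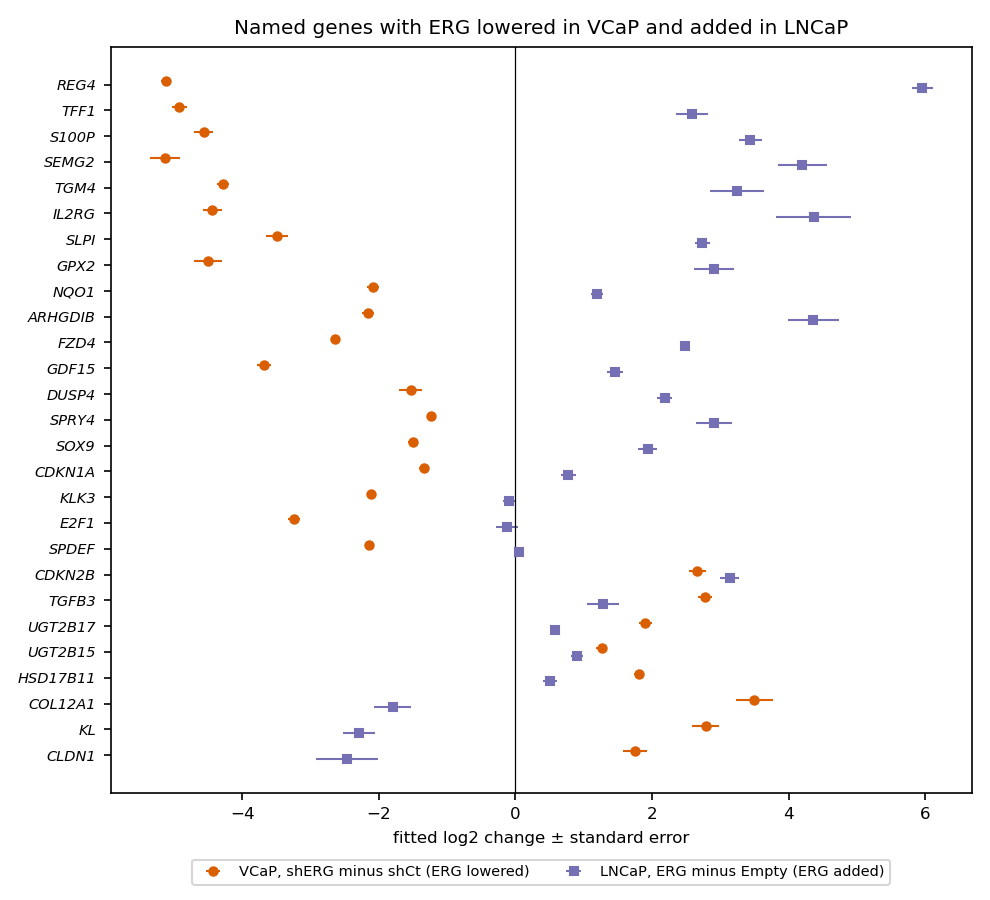
Fitted log2 change ± SE of 27 genes, with ERG lowered in VCaP (circles, shERG minus shCt) and with ERG added in LNCaP (squares, ERG minus Empty), n = 2 libraries a group in each line; the genes were picked from those described in the text with their values known. From REG4 to CDKN1A the 2 lines lie on opposite sides of 0, at KLK3, E2F1 and SPDEF the LNCaP value is near 0, and from CDKN2B to HSD17B11 both lie above 0.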

How the data were processed

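RNA of 24 libraries had been sequenced. Per the labels' protocols it was polyA RNA prepared with RNeasy kits, and STAR 2.3.1 and hg19 are named per the submitters' processing notes. Which program and annotation gave the counts, and whether strand was used, is not given in the sources used here. For each library the authors deposited gene lengths, RPKM values and read counts per gene. Tests used the deposited counts. The deposited RPKM values were read but no result rests on them.

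All 6 VCaP libraries were fitted together with edgeR 4.0.16 (limma 3.58.1, R 4.3.3), with TMM scaling (factors 0.938 to 1.08) and filterByExpr by group. The fit had 3 residual degrees of freedom, and contrasts used the quasi-likelihood F test and, for a change of more than 2-fold, with glmTreat, both adjusted by Benjamini-Hochberg over all genes tested. LNCaP was fitted in the same way. Changes are log2 with an SE from the F statistic, and with few reads the SE is approximate. Between 2 libraries of a group the chi-square per degree of freedom was 3.52 to 12.7, so replicates varied beyond counting error. Same-numbered libraries did not deviate together (correlations -0.037 to 0.028).

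Tested on simulated data of the shERG comparison (16164 genes, 67, 67 and 66 changed 1.5-, 2- and 4-fold), 91%, 98.5% and 100% were called and 0%, 0% and 95.5% passed the 2-fold test. False calls were 11 of 204, and 0 of 63 by the 2-fold test. The simulated counts had a single spread for all genes and the shCt mean as the base level in each library. Few genes were changed, as many up as down. In the real data 66.7% of genes were called, so these false call rates do not carry over to them.

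The compared groups, the gene lists and the rule for named genes were chosen with earlier results of these data known. The rule took ERG, the 25 largest rises and 25 largest falls past the 2-fold test with at least 5 CPM in the higher group and no overlap, members of short lists, up to 6 called members in each direction of longer lists, and the 10 largest differences from shARID1A in each direction. Not each of these is printed, and GINS2, ORC1, ESPL1 and GATA6 were added for their list or promoter. Promoter and microRNA sequences are RefSeq's, and 11801 of the 16791 tested genes matched a promoter. Where a group had at most 3 reads, folds are bounded with a floor of 3 counts over the group or given with an exact 95% interval, which cover counting error only. Python 3.11.15 with matplotlib 3.10.9, scipy 1.17.1, numpy 2.4.6 and pandas 2.3.3 served for tables and figures. Alternatives were RLE scaling, library totals as the scale, no filter, DESeq2 1.42.0, the compared groups alone, the replicate number as a block, and leaving out each library in turn. Some named genes and many of the lists are not reported here.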

Additional observations from a re-analysis of the deposited data

How the results depend on the processing

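With DESeq2, 954 genes passed the 2-fold test in place of 1570, with 234 higher in place of 478 and 720 lower in place of 1092. With the replicate number as a block, 11049 genes were called in place of 11203 and 1538 passed the 2-fold test. The block gave 12143 calls against shARID1A and 4338 in LNCaP, and same-numbered libraries share no stated source. Leaving out 1 LNCaP library at a time gave 2632 to 3873 calls there in place of 5045, with 1452 to 1962 higher and 1180 to 1911 lower.

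Over these alternatives, 1638 of 1638 values for the genes named in the text kept their direction and their side of the plain threshold. That covers the printed genes only, and not each gene chosen by the rule is printed. Counts of list members stayed near the main value in 1726 cases and moved away from it in 154. Counts over all genes stayed near it in 110 cases and moved in 10. Of the 117 named genes past the 2-fold test, 101 stayed past it with DESeq2, 110 with library totals as the scale and 107 to 112 when a single VCaP library was left out. Those lost without the first shERG library were ATOH1, DUSP4, ELK1, F5, KLK2, MMP10, SHMT1, SLC16A10, TGFB2 and UGT2B15. Library totals as the scale moved the split of higher and lower genes as given in the text. The 2 libraries a group and 3 residual degrees of freedom limit the precision, and below about 1 CPM the values rest on few reads.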

Other observations

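Small nucleolar RNAs of the SNORD116 cluster, processed from a long transcript of the Prader-Willi region, were lower with shERG. All 13 tested copies were called lower and 11 passed the 2-fold test (median log2 change -2.58). Summed over the copies, which may count a read more than once, they stood at 28.7 and 26.1 CPM with shCt, 4.58 and 4.94 CPM with shERG and 12 and 11.1 CPM with shARID1A, so both knockdowns were below shCt and shERG was lowest. The copies are nearly alike and share reads, and RNAs this short are captured unevenly in a polyA library, so they are counted as a single locus.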
